A study of Mus musculus with 8 samples.

Results

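Gene expression was compared between 2 engineered lines of TEC100.4, an immortalized cell line of the mouse whose stated origin is the cortical thymic epithelium, while both were under doxycycline. The 4 arrays compared were those whose titles name doxycycline, 2 of the line with the δ isoform of mutant TFII-I and 2 of the line with the β isoform, out of 8 arrays in all. In both lines the mutant was placed under a doxycycline-inducible system, and cells were grown with the drug for 24 h before RNA was prepared. The other 4 arrays, 2 of each line, came from the same lines kept without the drug; they entered the estimate of the spread and gave a second reading of the line difference. For those untreated arrays the genotype label says wild type, whereas the titles name the mutant lines; groups follow the titles.

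Each group was therefore limited to 1 engineered line, and the labels do not state whether a line was a clone or a pool. A line without a mutant was not analysed here, so the isoform, the site and number of transgene copies and any drift between the lines cannot be told apart. The labels leave unstated whether a group's 2 arrays hold RNA of separate cultures; p-values here thus reflect the spread between the samples at hand, which may be technical. All 8 arrays lay on 1 slide scanned once; the β arrays with doxycycline took columns 1 and 2 of the first row and the δ arrays columns 3 and 4, so line and position on the slide cannot be told apart either.

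TFII-I is a multifunctional transcription factor, encoded by Gtf2i, that binds initiator elements and E-boxes and also shuttles to the cytoplasm, where it takes part in signalling from growth factor receptors. Its splice isoforms differ in where they reside and in how they respond to growth factors, and in fibroblasts the β and δ isoforms have been described with opposing actions on growth-induced genes. The human gene is recurrently mutated in thymic epithelial tumours. The thymic cortex is built by epithelial cells that present antigen to developing T cells and attract their precursors with chemokines.

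Values below are levels: log2 of the spot intensity minus the 75th percentile of the same array, so that 0 is the 75th percentile. A difference is the δ mean minus the β mean of 2 arrays each, on the log2 scale with its standard error (SE); it is called higher (above 0) or lower (below 0) in the δ line where limma's p-value, corrected by Benjamini-Hochberg across the 19012 tested genes, was under 0.05. Where 4 values of a gene are given, those of the 2 β arrays stand first, against those of the 2 δ arrays. Between 43345 and 45080 probes were well above background on the 4 arrays. The 2 arrays of a line correlated at 0.996 in the β line and 0.997 in the δ line over genes, and arrays of different lines at 0.981 to 0.982. One untreated array, δ replicate 1, stood apart through a local defect that covered 180 of 1008 tiles of 8 by 8 spots; it is not among the 4 arrays compared, but a gene whose spot lay in the defect had an inflated spread and could miss the threshold.

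Gtf2i itself was read by 3 probes. The brightest read 4.14 and 4.19 on the β arrays and 4.81 and 4.80 on the δ arrays, a difference of 0.64 ± 0.13 (SE, n = 2 and 2, limma adjusted p = 0.0247), and the same lines without doxycycline differed by 0.68. A dimmer probe went the other way, from -1.49 and -1.48 in the β line to -2.28 and -1.99 in the δ line, a difference of -0.65 ± 0.20 (adjusted p = 0.117 over the 44289 probes kept). The remaining probe read higher in the δ line, with a difference of 0.50 ± 0.12 (limma adjusted p = 0.0597 over the same probes). Over those probes the brightest had a limma adjusted p of 0.0466. Adjusted p-values of a gene's other probes below are also over probes, and cannot be set directly against those over genes. The call on the brightest probe rests on all 4 arrays: it was not past the threshold without β replicate 1 (adjusted p = 0.113), β replicate 2 (0.0933), δ replicate 1 (0.163) or δ replicate 2 (0.146). It also rests on the choice of probe: read as the mean over its kept probes on all arrays, Gtf2i did not pass (limma adjusted p = 0.398). The position of each probe in Gtf2i, and whether it also reads the mutant, is not known here. The paralogues Gtf2ird1 and Gtf2ird2 differed by 0.25 ± 0.11 and 0.35 ± 0.12 and were not past the threshold (limma adjusted p = 0.192 and 0.120).

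The 2 lines differed widely. Of 19012 genes tested, 2696 were past the threshold, 14.2%, with 1686 higher in the δ line (8.87%) and 1010 lower (5.31%). Large differences were the smaller share: 458 genes were over 2-fold higher and 354 over 2-fold lower, and 47 and 59 were over 8-fold higher and lower. Over the genes past the threshold the median absolute difference was 0.73, against 0.25 over all genes tested. In 72 of them the β arrays, and in 55 the δ arrays, were not well above background, and such a gene gives only a lower bound on the fold. The 2 δ arrays lay on one side of both β arrays for 13044 genes, 68.6% of those tested, and without doxycycline this held for 51.9%, so that lack of overlap between 2 and 2 arrays says little by itself. At the edge of the threshold stood Usp22, a histone deubiquitinase, with 0.57 (adjusted p = 0.0499) just inside, and Cuedc2 with 0.53 (0.0501) just outside.

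Each of the 4 arrays weighs on the number of calls. Without β replicate 1 there were 1184, without β replicate 2 1098, without δ replicate 1 640 and without δ replicate 2 702; in such fits the lone array of a line is assumed to vary like the other groups. The split was 62.5% higher among the called genes and 72.2% with arrays centred on their median instead of the 75th percentile. A gene is named below as higher or lower without further remark only where its call held under all alternative settings that could be run for it, among them each of the 8 arrays left out in turn. Counts within a gene list or family are to be read beside the shares over all genes tested. These were 14.2% past the threshold, 8.87% higher and 5.31% lower, and in fits without 1 of the 4 arrays the share over all genes fell too.

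The untreated arrays of the same 2 lines are separate from the 4 compared but enter the same estimate of the spread. Of the 2696 genes, 2607 (96.7%) differed in the same direction there, against 68.5% of all genes tested, and 1769 (65.6%) were also past the threshold in that direction. In the other direction, of 2470 genes past the threshold without doxycycline (13% of those tested), 71.6% were past it with the drug. Over the 2696 genes the differences with and without doxycycline correlated at r = 0.955, and over all genes tested at 0.653; these are descriptions across genes, which are not independent replicates, and the called genes were chosen on one of the 2 axes. The difference between the line differences, with minus without doxycycline, passed the limma test for 0 genes, with a lowest adjusted p of 0.134 and 1322 genes at an unadjusted p under 0.05. Without the untreated δ replicate 1 that count was 21, without the treated δ replicate 2 it was 1, and without the untreated δ replicate 2, which leaves the array with the defect alone in its group, it was 1055. At the threshold for each line difference, 4 genes were past the threshold in opposite directions with and without the drug; their values stand in the closing section.

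**Figure D1:**
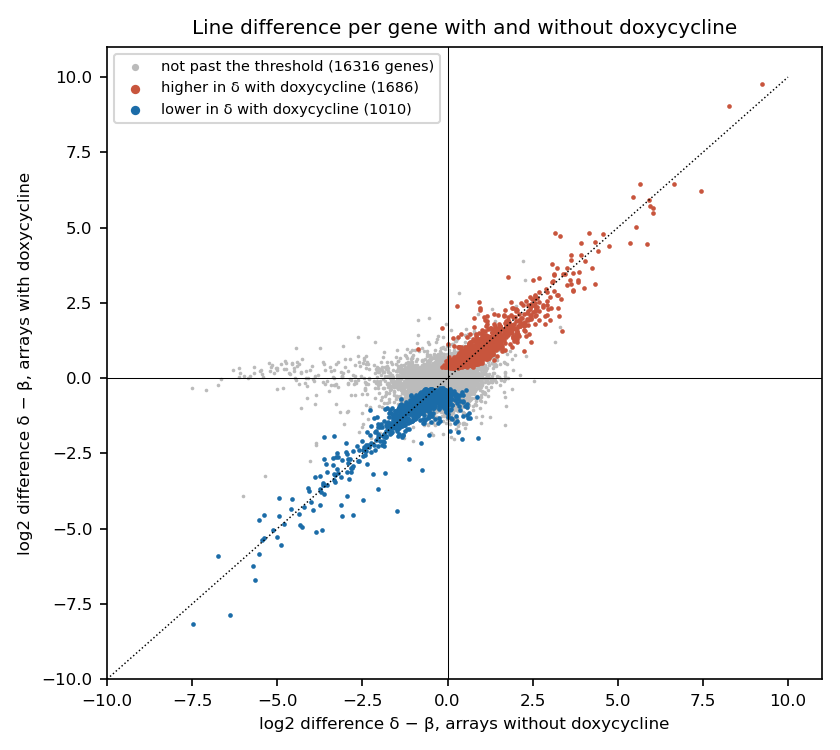
Log2 difference δ minus β for the 19012 genes tested, on the arrays without doxycycline (x axis) and with doxycycline (y axis); red and blue points are the 1686 and 1010 genes higher and lower with doxycycline, grey points the others, and the dotted line is equality. The coloured points follow the dotted line. The grey streak to the left, near 0 on the y axis, is of genes lower in the δ than in the β line on the untreated arrays alone, where δ replicate 1 carries the local defect.

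The labelled cell type was set against marker genes. Of 11 markers of cortical thymic epithelium, 9 were well above background on both arrays of each line, among them Ctsl, the lysosomal protease of cortical epithelium, at 5.43 and 5.62 in the β line and 5.54 and 5.51 in the δ line. Its defining proteasome subunit gene Psmb11 and the peptidase gene Enpep were not well above background on any of the 4 arrays, nor was the epithelial adhesion gene Epcam, and Cdh1 was so on 1 array of each line. Foxn1, the master regulator of thymic epithelium, read -4.97 and -5.27 against -5.34 and -5.25, and did not pass the test (adjusted p = 0.495). All 8 fibroblast markers were well above background in the δ line and 7 in the β line. The collagen gene Col1a2 read 6.90 and 6.65 in the β line and 7.22 and 7.18 in the δ line, and the proteoglycan gene Dcn 6.68 and 6.28 against 6.31 and 6.39. The summed level of the fibroblast markers lay between 8.68 and 8.88 in the β line and at 8.63 in both δ arrays. That of the cortical markers lay between 6.0 and 6.13 and between 5.85 and 5.88. The medullary sum lay between 4.49 and 4.73 and between 1.92 and 2.04, and the epithelial sum between 4.37 and 4.40 and between 3.18 and 3.22. Krt14 was the brightest medullary marker on each of the 4 arrays. The medullary marker Tnfrsf11a differed by -0.53 (limma adjusted p = 0.0274), and was not past the threshold after normexp or with median centring. Aire, Krt5, Cldn4 and Cd80 did not pass the test. Of 8 thymocyte genes 5 were well above background on all 4 arrays, with the coreceptor gene Cd4 at 3.70 and 4.35 against 3.40 and 3.55, while Ptprc, Cd3g and Rag1 were not on any. Of 8 myeloid and B cell genes 5 were so in both lines, with the integrin gene Itgam at 3.33 and 2.81 against 2.75 and 2.72, while Adgre1 and Spi1 were not on any of the 4 arrays. These levels of Cd4 and Itgam come from the brighter of the probes kept for each gene. The other Cd4 probe was far dimmer, at -2.48 and -2.55 against -2.84 and -2.70. The other Itgam probe read -2.62 and -3.23 against -3.0 and -2.89. Summed levels use the brightest probe of each gene and so rest on the brighter ones. The summed level lay between 4.04 and 4.61 in the β line and between 3.73 and 3.87 in the δ line for the thymocyte genes, and between 3.74 and 4.0 and at 3.48 for the myeloid and B cell genes. In a bulk sample fewer cells of a type and less RNA per cell cannot be told apart, and the part of such cells in the results was not tested.

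The widest contrasts were genes read in only one of the lines. Eid2, an inhibitor of the acetyltransferase p300 and of differentiation, read -8.26 and -8.60 on the β arrays, below background, and 1.45 and 1.25 on the δ arrays, at least 185-fold higher (limma adjusted p = 7.31e-06). The adaptor gene Bex4 read -7.60 and -7.83 against 1.36 and 1.26, at least 180-fold higher (7.31e-06). Such a bound sets the mean of the brighter line against the lowest signal well above background in the other, and no larger fold can be read. That lowest signal is not a strict detection limit. On β replicate 1 it was -6.09, yet the fibroblast marker Lum read -5.79 there and was not well above background. The bounds also hold for the main processing only. After normexp the log2 differences of Eid2 and Bex4 were 5.72 and 5.56, below the bounds given for them. Rgs16, which switches off G protein signals, was at least 47.8-fold higher, Radx, whose protein binds single-stranded DNA at stalled replication forks, at least 29.1-fold and Bex6 at least 18.9-fold. On the other side, the potassium leak channel gene Kcnk1 read -0.57 and -0.59 on the β arrays and -8.69 and -8.78, below background, on the δ arrays, at least 56.9-fold lower (1.20e-06). Ror2, a receptor tyrosine kinase for WNT5A, read -0.79 and -0.80 against -8.69 and -8.62, at least 49.0-fold lower (3.41e-05). Pkhd1l1, a relative of the polycystic kidney disease gene for fibrocystin, was at least 14.5-fold lower and Pate14 at least 9.19-fold. These 9 genes kept their call in every alternative that could be run. The photoreceptor cadherin gene Cdhr1 was at least 74.1-fold lower (adjusted p = 0.0123), with a spot in the defect of the untreated array; without any 1 of the 4 treated arrays it had an adjusted p of 0.0661 to 0.0824. Igf1, the growth factor gene, was at least 7.94-fold lower, and was not past the threshold without β replicate 2 (adjusted p = 0.0604) or δ replicate 1 (0.0706).

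The promoters of 4 of these genes are shown because each gene was read in one line and not in the other. They run from 250 bases before to 50 bases after the transcription start, as RefSeq gives them on GRCm38.p6, in the direction of transcription, with CpG dinucleotides (the letters CG, which read the same on both strands) in capitals.
Eid2, read in the δ line, chr7:28267631-28267930, plus strand: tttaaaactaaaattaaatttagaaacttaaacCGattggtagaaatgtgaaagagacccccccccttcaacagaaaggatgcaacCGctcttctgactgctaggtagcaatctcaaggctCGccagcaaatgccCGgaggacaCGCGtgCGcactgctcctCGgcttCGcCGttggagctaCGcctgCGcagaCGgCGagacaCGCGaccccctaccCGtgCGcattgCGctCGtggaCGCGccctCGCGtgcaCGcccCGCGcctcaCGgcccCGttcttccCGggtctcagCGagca
Bex4, read in the δ line, chrX:136138746-136139045, plus strand: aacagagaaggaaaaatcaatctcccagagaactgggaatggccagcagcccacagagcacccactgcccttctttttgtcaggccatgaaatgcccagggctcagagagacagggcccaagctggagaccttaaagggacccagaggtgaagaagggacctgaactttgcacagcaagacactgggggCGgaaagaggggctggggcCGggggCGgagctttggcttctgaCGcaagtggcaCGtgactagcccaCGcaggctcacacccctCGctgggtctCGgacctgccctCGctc
Ror2, read in the β line, chr13:53286075-53286374, minus strand: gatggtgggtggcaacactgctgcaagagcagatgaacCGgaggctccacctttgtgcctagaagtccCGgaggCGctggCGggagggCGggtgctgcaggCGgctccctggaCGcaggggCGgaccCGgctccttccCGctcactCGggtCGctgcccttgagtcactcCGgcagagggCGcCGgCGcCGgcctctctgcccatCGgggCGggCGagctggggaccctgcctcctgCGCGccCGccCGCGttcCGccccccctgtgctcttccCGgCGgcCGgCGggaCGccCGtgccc
Kcnk1, read in the β line, chr8:125994852-125995151, plus strand: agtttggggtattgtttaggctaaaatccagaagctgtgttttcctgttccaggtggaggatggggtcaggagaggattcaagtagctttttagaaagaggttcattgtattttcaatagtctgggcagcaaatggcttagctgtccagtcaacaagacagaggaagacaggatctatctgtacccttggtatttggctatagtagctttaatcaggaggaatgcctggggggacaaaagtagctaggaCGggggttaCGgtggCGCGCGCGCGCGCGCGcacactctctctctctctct

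The Eid2 and Ror2 windows held 31 and 32 CpG, those of Bex4 and Kcnk1 9 and 10, against a median of 17 over the 15006 tested genes with a window of 300 bases. Over the 54 matched genes past the threshold with the β line below background the median was 19, over the 42 with the δ line below background it was 8, and over the 1987 other genes past the threshold 19. At least 1 CpG was held by 96.9% of all windows. These counts describe the windows; methylation was not measured.

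Among genes well above background on all 4 arrays, the largest differences toward the δ line were led by Stk26 and Csf2ra. Stk26, a kinase of the germinal centre kinase family, read -4.35 and -4.89 on the β arrays and 0.97 and 0.74 on the δ arrays, a 44.5-fold difference (5.48 ± 0.20, SE, n = 2 and 2, limma adjusted p = 5.20e-05). Csf2ra, the α chain of the GM-CSF receptor, read -4.04 and -3.98 against 1.0 and 1.01, 32.3-fold higher (adjusted p = 9.10e-06). Plxdc2, a plexin domain membrane protein, read -0.94 and -1.18 against 3.33 and 3.30, 20.8-fold higher (4.47e-05). In each of the 3 genes the arrays of a line lay close together and the lines did not overlap. Further genes higher in the δ line were the Rac regulator Arhgap24 by 4.53, the tetraspanin Tspan7 by 4.22, Jam2, an adhesion molecule of cell junctions, by 3.67, the oxidation repair enzyme Msrb2 by 3.66, Kctd15 by 3.48, the peroxiredoxin-like gene Prxl2a by 3.47, the multimerin gene Mmrn1 by 3.43, Nrep by 3.26 and Ppp1r14a, an inhibitor of myosin phosphatase, by 3.26. Igf2bp3, a fetal RNA-binding protein that steadies growth-related messages, read -3.17 and -3.27 against 0.71 and 0.72, 15.3-fold higher (adjusted p = 1.30e-05). For the planar polarity gene Prickle1 the probes disagreed: its brightest differed by 3.90, a dim one by 4.26 and the last by -0.23. Mdfi, an inhibitor of myogenic factors, read -5.19 and -3.22 on β arrays that lay far apart and 0.54 and 0.66 on the δ arrays, a difference of 4.80; it was not past the threshold without δ replicate 1 (adjusted p = 0.0663) or δ replicate 2 (0.0669).

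The largest differences toward the β line, under the same condition, were led by Slc39a8 and Tspan8. Slc39a8, an importer of zinc and manganese, read -0.19 and -0.11 on the β arrays and -6.34 and -5.80 on the δ arrays, 60.4-fold lower in the δ line (-5.92 ± 0.31, SE, n = 2 and 2, limma adjusted p = 0.000196); its other probe differed by -1.86 (adjusted p = 0.00111). Tspan8, a tetraspanin of epithelia, read 1.40 and 1.13 against -4.73 and -4.44, 57.6-fold lower (adjusted p = 1.63e-05). Lsr, which recruits tricellulin to the corners where epithelial cells meet, read 5.21 and 5.20 against 0.68 and 0.73, 22.6-fold lower (1.30e-05). The Ly49 receptor genes Klra4 and Klra7, known from natural killer cells, differed by -5.32 and -5.37, and the lectin gene Clec2f of the same gene complex by -4.83. Of 9 Klra genes tested, 6 were lower and 0 higher, a family looked at after its values were seen; Klra16 and Klra8 differed by -2.84 and -3.97. Members of this family are near-identical, so their probes may read each other's transcripts. Others lower were the phosphodiesterase Pde3b at -5.04, the raft protein Mal at -4.54, the cytoskeletal genes Dpysl3 and Shtn1 at -4.36 and -3.78, Glt8d2 at -4.13 and the endoplasmic reticulum gene Serp2 at -4.03.

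**Figure D2:**
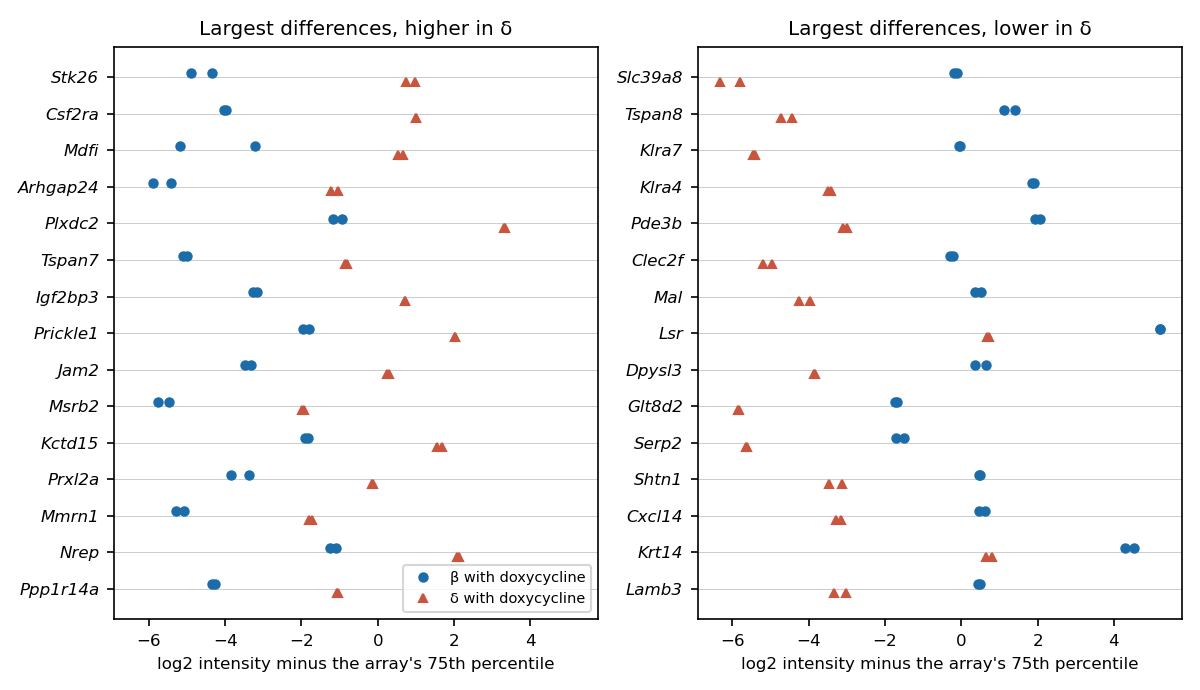
Levels (log2 intensity minus the array's 75th percentile) of the 15 genes with the largest difference in each direction, among those past the threshold and well above background on all 4 arrays; circles are the 2 β arrays and triangles the 2 δ arrays with doxycycline. In every gene the 2 arrays of one line lie on one side of the 2 arrays of the other, with the widest gap between arrays of one line in the β arrays of Mdfi.

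Keratins, the intermediate filaments of epithelia, split by member. Of 17 keratin genes tested 4 were lower and 3 higher, with a list median of -0.32 (all genes tested: -0.02). Krt14, the keratin of basal and medullary thymic epithelium, read 4.53 and 4.28 in the β line and 0.80 and 0.64 in the δ line, 12.9-fold lower (limma adjusted p = 8.64e-05). Krt8, a keratin of cortical epithelium, read 3.53 and 3.44 against 1.37 and 1.35, 4.36-fold lower (0.000201), and Krt19 differed by -2.40. Krt18, the filament partner of Krt8, differed by -0.32 and did not pass (adjusted p = 0.0673). Krt15 went the other way, from -2.87 and -2.83 to -1.19 and -1.20, 3.15-fold higher (0.000337). With 1 of the 4 arrays left out in turn, 3 keratins were lower and 1 or 2 higher.

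Of 17 general epithelial markers tested, 4 were lower in the δ line and 0 higher, also without any 1 of the 4 arrays. Beside Krt8 and Krt19 these were Ocln, the tight junction protein occludin, at -4.20 and -4.25 against -6.14 and -6.19 (-1.94, limma adjusted p = 0.00266), and the desmosome gene Pkp3 at -1.38, which missed the threshold after normexp background correction (adjusted p = 0.0526). Among 19 genes of claudins and tight junctions 2 were lower and 2 higher, 21.1% against 14.2% of all genes tested. The higher ones were both junctional adhesion molecules, Jam2 and Jam3. Jam3 read 0.36 and 0.36 in the β line and 2.30 and 2.26 in the δ line. Of 20 cadherins and protocadherins 1 was past the threshold, 5% against 14.2% of all genes tested. It was the protocadherin Pcdh19, 5.35-fold lower (1.61 and 1.45 against -0.85 and -0.93, limma adjusted p = 0.000272).

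Of 20 regulators and markers of mesenchymal transition, 6 were higher and 2 lower; without 1 of the 4 arrays 2 or 3 were higher and 0 lower. Acta2, smooth muscle actin, read 3.33 and 3.39 in the β line and 5.74 and 5.75 in the δ line, 5.24-fold higher (limma adjusted p = 0.000149). The probes of Acta2 disagreed: one that was brighter on the β arrays read 4.36 and 4.34 against 4.53 and 4.51 and did not pass (0.16, adjusted p = 0.504), and a dimmer one differed by 2.30; the mean over probes was 1.62. Zeb1, a repressor of epithelial genes, read -1.41 and -1.46 against -0.22 and -0.27, 2.28-fold higher (0.00121). Among 10 muscle markers 4 were higher and 0 lower, led by skeletal actin Acta1 with 2.10; without 1 of the 4 arrays between 1 and 3 were higher, and the list median of 0.34 turned to -0.02 after normexp. The platelet-derived growth factor receptor gene Pdgfrb, at -1.39 and -1.71 against 0.67 and 0.71, was 4.73-fold higher, while Pdgfra differed by -0.01 (adjusted p = 0.968). Kdr, the VEGF receptor, read 0.28 and 0.37 against 1.88 and 1.81, 2.87-fold higher (0.000415). Of the 4 other endothelial markers of the cell type panel, Pecam1, Cdh5, Vwf and Tek, 0 passed the limma test and 0 had an unadjusted p under 0.05. Tek, whose spot lay in a tile that deviated on at least 1 of the 8 arrays, still read -5.85 and -5.78 against -4.66 and -4.42 (1.27). Of 11 genes of a longer endothelial list 2 were higher and 0 lower, 18.2% against 14.2% of all genes tested. Of the 11 genes 8 were above 0, with a median of 0.33 (0.04 after normexp). At an unadjusted limma p under 0.05, 4 were higher. The summed level of the panel was mostly that of Kdr. It lay between 0.81 and 0.89 in the β line and between 2.04 and 2.06 in the δ line. The part of endothelial cells in the result was not tested.

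Basement membrane genes held both directions. Lamb3, a chain of laminin-332 of the epithelial basement membrane, was lower at -3.65, with levels of 0.48 and 0.43 against -3.03 and -3.35 (limma adjusted p = 0.000130). Nid2, which links laminin to collagen IV, was higher by 0.87, and the matrix phosphoprotein Spp1 lower at -1.71. In all, 3 of 22 laminins and matrix glycoproteins were higher and 3 lower (1 and 3 without any 1 of the 4 arrays). Of 33 genes for collagens and their crosslinking enzymes 7 were lower and 3 higher, with Loxl4 lower at -1.32 and Col8a1 higher by 1.1; the median was -0.35, and without 1 of the 4 arrays between 1 and 3 were lower. Integrins, the receptors for this matrix, had a median of -0.42, between -0.33 and -0.31 under the other scalings and background correction, with 4 of 17 lower and 1 higher; without 1 of the 4 arrays between 1 and 3 were lower. Itga1, a collagen receptor chain, was 2.91-fold higher (-1.08 and -1.21 against 0.41 and 0.38), with a dimmer probe at 0.77 (adjusted p = 0.0796), and Itgb7 2.68-fold lower. Among 23 matrix proteases and their inhibitors 5 were lower and 3 higher, but 2 to 4 and 0 or 1 without 1 of the 4 arrays. Timp3, a matrix-bound inhibitor, read 3.13 and 2.84 against 0.93 and 0.87, and Plau, urokinase, -1.97 and -2.30 against -4.08 and -4.12.

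**Figure D3:**
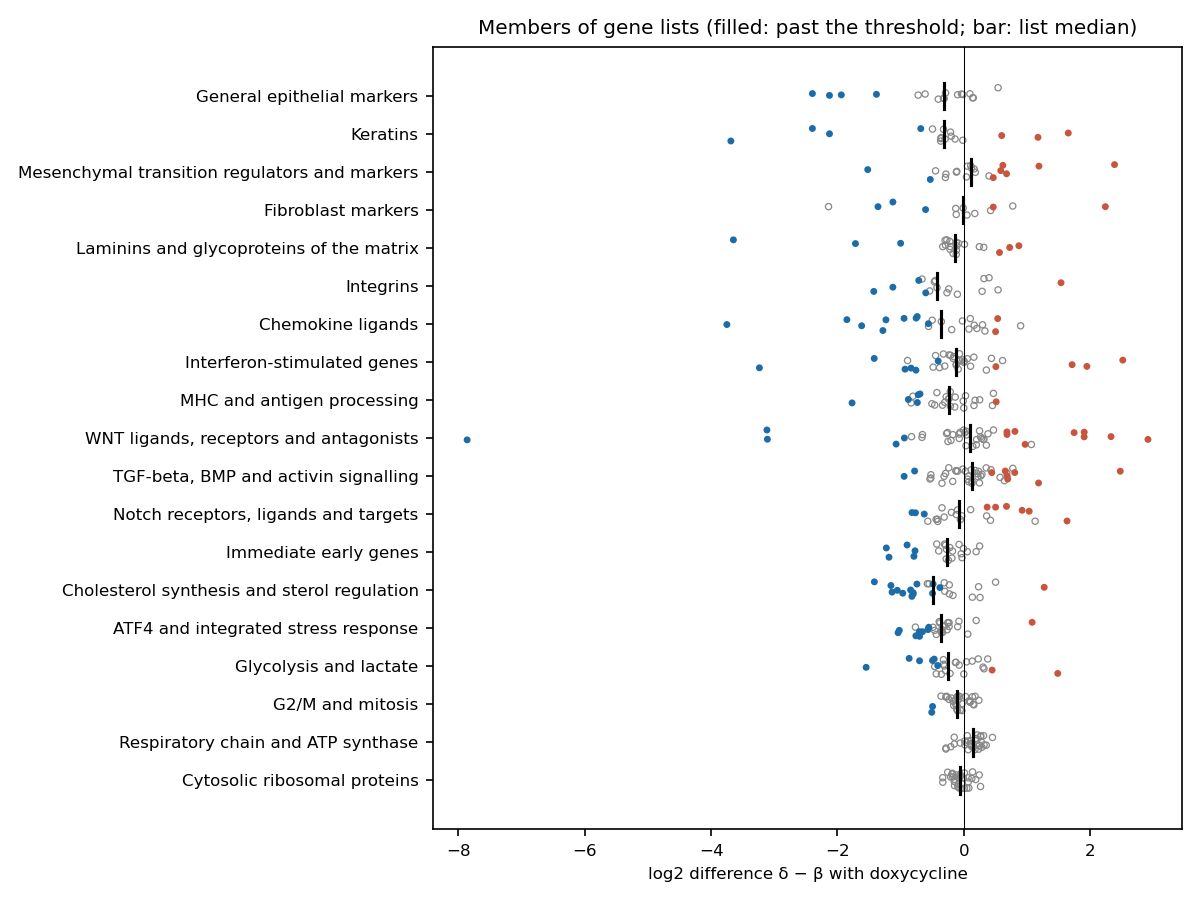
Log2 difference δ minus β with doxycycline for the members of 19 gene lists, 1 point per tested gene; filled red and blue points are past the threshold, open points are not, and black bars are list medians. Cholesterol synthesis has its median at -0.49, while the ribosomal and respiratory chain genes crowd near 0 with 0 filled points.

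In cholesterol synthesis 13 of 25 genes were lower in the δ line and 1 higher, 56.0% against 14.2% of all genes tested, with a median of -0.49 that lay between -0.50 and -0.40 under the other scalings and background correction. Sqle, which makes squalene epoxide, read 3.63 and 3.61 in the β line and 2.49 and 2.48 in the δ line, 2.20-fold lower (limma adjusted p = 0.000903). Further down the pathway Cyp51, the lanosterol demethylase, read 1.32 and 1.28 against 0.25 and 0.25, 2.07-fold lower, and Msmo1 2.65 and 2.70 against 1.49 and 1.55, 2.22-fold lower. Hmgcs1, the synthase at the head of the pathway, differed by 0.14 (adjusted p = 0.571). The member that was higher was Abca1, the cholesterol exporter, from 0.28 and 0.05 to 1.47 and 1.40, 2.42-fold (0.00130). The count of lower members was 7 without β replicate 1, 8 without β replicate 2 and 3 without either δ replicate. Without doxycycline the median of the list was -0.55, on arrays that entered the comparison only through the estimate of the spread.

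Other metabolic lists had fewer called members, at 20.7% to 33.3% of a list against 14.2% of all genes tested. In fatty acid metabolism Scd1, the desaturase that makes oleate, read -5.33 and -5.48 against -2.19 and -2.17, 9.36-fold higher in the δ line (limma adjusted p = 0.000154), and the elongase Elovl7 3.36-fold lower; 3 of 29 were higher and 3 lower, and 1 or 2 in each direction without 1 of the 4 arrays. Of 26 genes of glycolysis and lactate 6 were lower and 2 higher, and between 2 and 3 were lower without 1 of the 4 arrays. Slc16a3, the lactate exporter, read 4.15 and 4.11 against 2.61 and 2.56, 2.92-fold lower (0.00129), and Pdk1, which holds pyruvate back from mitochondria, was lower at -0.86. Ldhb, the lactate dehydrogenase chain that favours pyruvate, was 2.81-fold higher. Of 28 genes of the ATF4 stress response, which supplies amino acids, 8 were lower and 1 higher, with a median of -0.37; without 1 of the 4 arrays between 1 and 5 were lower, Trib3 among the genes that kept their call (-1.04). The one that was higher, Vldlr, is a lipoprotein receptor (1.08). Among 30 genes of NRF2, glutathione and pentose phosphate metabolism 7 were lower and 3 higher (3 or 4 and 0 or 1 without 1 of the 4 arrays), led by carbonyl reductase Cbr3 (-2.37 and -2.23 against -5.54 and -5.01, 7.87-fold lower).

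Chemokine ligands, which thymic epithelium uses to draw in precursors, also held many called members: 9 of 23 were lower and 2 higher, 47.8% in all, with a median of -0.35. Cxcl14 read 0.46 and 0.61 in the β line and -3.15 and -3.29 in the δ line, 13.5-fold lower (limma adjusted p = 3.00e-05). A dim second probe of Cxcl14 differed by -0.42 (adjusted p = 0.0726), and the mean over probes was -2.09. Cx3cl1, fractalkine, read 2.41 and 2.29 against 0.51 and 0.48, 3.60-fold lower (0.000209). The monocyte attractants Ccl2, at 5.26 and 5.31 against 3.95 and 4.05, and Ccl7 were lower at -1.28 and -1.23, and Ccl5 at -1.62. Without 1 of the 4 arrays 5 or 6 ligands were lower and 0 higher. Cxcl12 and Ccl25, which attract thymic precursors, differed by 0.54 (adjusted p = 0.0467, and 0.105 to 0.230 without 1 of the 4 arrays) and by 0.17 (0.440).

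Cytokines and interferon-stimulated genes held calls in both directions. Il33, an alarmin of barrier cells, read 0.58 and 0.85 against 2.21 and 2.11, 2.72-fold higher in the δ line (limma adjusted p = 0.00286), and Ltb, a TNF family ligand of lymphoid organs, was 4.42-fold higher (-5.38 and -5.38 against -3.48 and -2.99). The decoy receptor Tnfrsf23 was 5.79-fold lower on its brightest probe, while its 2 other probes differed by -0.83 and -0.45 and did not pass (adjusted p = 0.113 and 0.0992). Of 35 interferon-stimulated genes 4 were higher and 6 lower, with a median of -0.12, and 3 were higher and 1 to 4 lower without 1 of the 4 arrays. The restriction factor Ifitm1 read -4.63 and -4.69 against -2.17 and -2.11, 5.73-fold higher, and the guanylate-binding proteins Gbp2 and Gbp3 were higher by 1.72 and 1.95. Oas1a, a sensor of viral RNA, went from -0.03 and 0.29 to -3.17 and -3.03, 9.41-fold lower (adjusted p = 8.92e-05). Of 28 genes of MHC and antigen processing 5 were lower and 1 higher, and 1 to 4 were lower and 0 higher without 1 of the 4 arrays. With all 4 arrays the called members were 21.4% of this list, against 14.2% of all genes tested. The class II invariant chain Cd74 read -1.31 and -1.57 against -3.28 and -3.14, 3.41-fold lower (limma adjusted p = 0.00152). The class I chain H2-K1 was lower at -0.88, with its other probe at -0.31 (adjusted p = 0.222), and with an adjusted p of 0.0503 to 0.0914 without 1 of the 4 arrays.

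In the WNT pathway both directions held large members. The ligands Wnt2 and Wnt6 were higher in the δ line by 2.92 and 1.91, with Wnt6 at 1.72 and 1.72 against 3.68 and 3.57 (limma adjusted p = 0.000361). The agonist Rspo1, which keeps WNT receptors at the surface, read 2.21 and 2.16 against 3.95 and 3.92, 3.36-fold higher. The secreted antagonist Wif1 was higher by 2.33, and Nkd1, a feedback inhibitor, was at least 3.22-fold higher. The ligands Wnt10a, at 1.59 and 1.53 against -1.53 and -1.58, and Wnt7a were lower at -3.12 and -1.07, as was the antagonist Sfrp4 at -3.11, next to the receptor Ror2. In all 9 of 42 members were higher and 5 lower, and between 5 and 7 and between 4 and 5 without 1 of the 4 arrays. The target gene Axin2 was higher by 0.97 and did not keep its call without δ replicate 1 or 2 (adjusted p up to 0.0620).

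Of 41 genes of TGF-β, BMP and activin signalling 7 were higher and 2 lower, with a median of 0.13, and between 1 and 4 were higher without 1 of the 4 arrays. With all 4 arrays the called members were 22% of this list, against 14.2% of all genes tested. The ligand Bmp7 read -1.58 and -1.71 in the β line and 0.83 and 0.85 in the δ line, 5.57-fold higher (limma adjusted p = 9.26e-05). Among 24 Notch pathway genes 6 were higher and 3 lower, but 1 to 3 and 0 or 1 without 1 of the 4 arrays. Hey1, a target gene of the pathway, differed by 0.93, with adjusted p of 0.0524 and 0.0680 without δ replicates 1 and 2. Of the EGF receptor ligands Ereg read 1.24 and 1.11 against -0.31 and -0.25, 2.75-fold lower, and Hbegf was 3.04-fold lower. Fgfr1 was higher by 1.21 and Fgfbp1, a carrier of FGF ligands, lower at -2.07. Among 22 immediate early genes, which growth factor signals switch on within minutes, 5 were lower and 0 higher, with a median of -0.26. Fosl1 read -0.96 and -0.90 against -2.15 and -2.16, 2.34-fold lower (adjusted p = 0.00111), and Atf3 -1.64 and -1.66 against -2.96 and -2.70, 2.27-fold lower. Without 1 of the 4 arrays 2 or 3 of these genes were lower.

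The Hox genes, which record the position of a cell along the body, differed by cluster. Of 10 HoxB genes tested 6 were lower in the δ line and 0 higher, with a median of -1.52. Of 9 HoxA genes 3 were higher, and of 9 HoxC genes 2 were higher and 1 lower. Of 5 HoxD genes 0 passed the limma test, with 1 at an unadjusted p under 0.05. That gene, Hoxd4, read -6.24 and -6.76 against -3.29 and -3.21, a difference of 3.25 ± 1.01 (SE, limma adjusted p = 0.0864). On the untreated arrays Hoxd4 differed by 2.28. Its spot lay in a tile that deviated on at least 1 array, so the missed threshold does not show that Hoxd4 was unchanged. Hoxb6 read -1.77 and -1.76 in the β line and -3.93 and -3.94 in the δ line, 4.49-fold lower (limma adjusted p = 0.000110). Hoxb9 read -2.31 and -2.39 against -5.23 and -4.73, 6.21-fold lower (0.00152). Hoxb5 and Hoxb13 were below background in the δ line, at least 3.53-fold and 4.75-fold lower. Hoxb8 and Hoxb7 were also lower, but not without β replicate 2 or δ replicate 1 for Hoxb8 (adjusted p = 0.0617 and 0.0706), nor without any 1 of the 4 arrays for Hoxb7 (0.0770 to 0.142). The members at the other end of the cluster, Hoxb1 to Hoxb4, had differences of -0.14, -0.15, -0.30 and 0.53 and were not past the threshold. Hoxc10 and Hoxc11 were higher by 1.12 and 1.46, and Hoxc12 lower at -1.0, though not without δ replicate 2 (adjusted p = 0.0550). The 3 HoxA calls, Hoxa2, Hoxa5 and Hoxa10, were lost without any 1 of the 4 arrays, with limma adjusted p of 0.0591 to 0.110, 0.0512 to 0.0661 and 0.0867 to 0.183. On the untreated arrays Hoxb6 and Hoxb9 differed by -2.26 and -3.27. Of 20 factors of the pharyngeal pouches and epithelium, 2 were higher and 0 lower, 10.0% against 14.2% of all genes tested. Sox9, a regulator of epithelial progenitors, was higher by 1.63 on 1 probe, while its other probe, of a like level in the β line, differed by 0.06 (adjusted p = 0.901) and the mean over probes was 0.84.

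**Figure D4:**
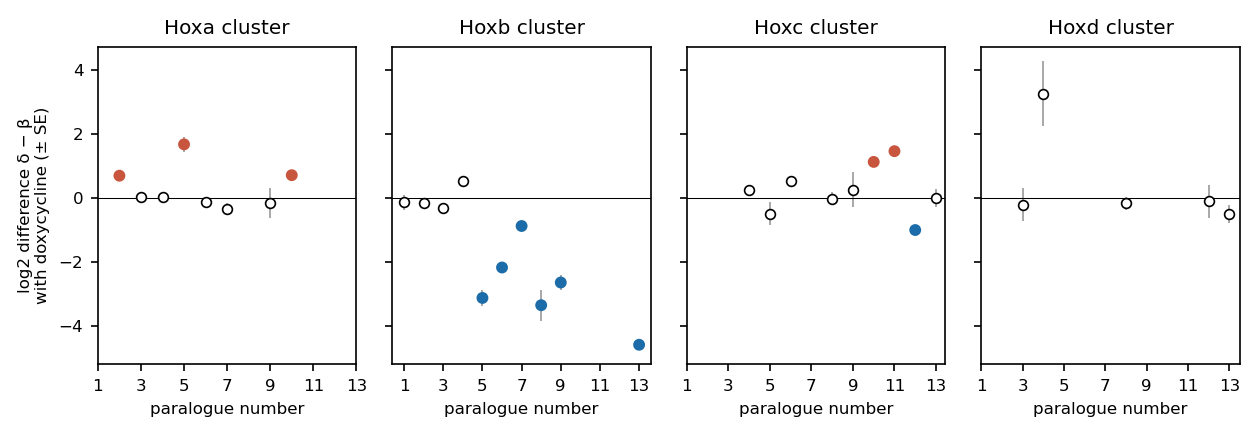
Log2 difference δ minus β with doxycycline (± SE) for the Hox genes tested with an SE under 2, by cluster and paralogue number; filled red and blue points are past the threshold and open points are not. The HoxB genes from paralogue 5 upward lie below 0.

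Ribosomal, respiratory and cell cycle lists held few calls. Of 33 cytosolic ribosomal protein genes and 32 genes of the respiratory chain and ATP synthase 0 passed the limma test, with 0 and 4 at an unadjusted p under 0.05. Under quantile normalization 2 respiratory genes passed. The respiratory genes had a median of 0.14, with 26 of 32 above 0, and between 0.14 and 0.24 under the other scalings and background correction. Of 33 genes of mitosis 2 were lower, and of 33 of DNA replication 3, among which the S phase activator E2f2 read 1.49 and 1.48 against 0.64 and 0.68, 1.77-fold lower (limma adjusted p = 0.00295). Most members of both lists lay below 0. Of the replication genes 5 were above 0, with a median of -0.19 and 9 lower at an unadjusted limma p under 0.05. Of the mitosis genes 9 were above 0, with a median of -0.10 and 5 lower at that p. All genes tested had a median of -0.02. With median centring the replication and mitosis medians were -0.10 and -0.01, against 0.07 over all genes. Of 23 p53 target genes 3 were higher and 4 lower, 30.4% against 14.2% of all genes tested; without 1 of the 4 arrays 2 or 3 were higher and 0 or 1 lower. Pmaip1, which encodes the death protein NOXA, read -2.53 and -2.31 in the β line and -0.30 and -0.11 in the δ line, 4.65-fold higher (0.000326), and Ddit4l, an inhibitor of mTOR, was at least 14.2-fold higher. The caspase gene Casp6 was higher by 1.08.

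Calls lay on all autosomes and the X chromosome but not evenly. Among 673 tested genes of chromosome 14, 17.5% were higher in the δ line and 4.61% lower, against 8.87% and 5.31% over all genes tested. On chromosome 10, with 888 genes, 3.83% were higher and 10.5% lower. The median difference of all genes of chromosome 10 was -0.19 with doxycycline and -0.14 on the untreated arrays. For chromosome 14 those medians were 0.05 and 0.12, and for chromosome 15, the next lowest, -0.13 and -0.07. Gene order came from the RefSeq table and no test was run on these shares; copy number was not measured. Among 3 genes known from sex chromosomes, Xist, Uty and Kdm5d, 0 passed the limma test and 0 had an unadjusted p under 0.05. Xist read -2.0 and -2.55 in the β line and -2.69 and -2.38 in the δ line.

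**Figure D5:**
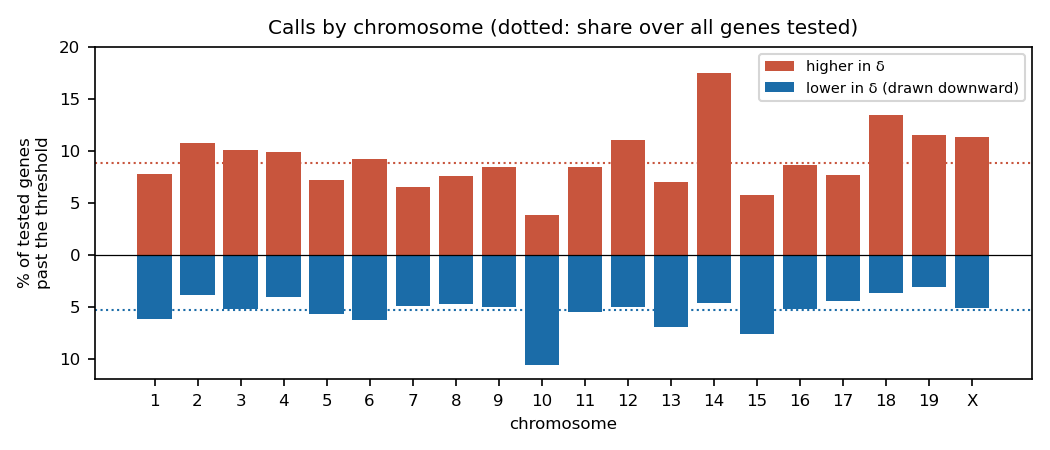
Share of tested genes past the threshold on each chromosome, in percent, higher in the δ line upward and lower in the δ line downward; dotted lines are the shares over all genes tested, 8.87% and 5.31%. Chromosome 14 has the tallest upward bar (17.5%) and chromosome 10 the deepest downward bar (10.5%).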

How the data were processed

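RNA of 2 lines with and without doxycycline, 2 arrays each, had been labelled with Cy3 and hybridised to 1-colour Agilent mouse arrays. The deposited values used are spot intensities on a linear scale (processed signal, which per the file headers Agilent Feature Extraction 11.5.1.1 had background-subtracted and detrended; the submitters' processing notes name 11.5.11). The deposited flags, another kind of value, gave outlier spots and spots well above background. Spots flagged as outliers and control spots were left out, spots of a probe averaged, and log2 values set to the 75th percentile of each array. Of 56605 probes 44289 were kept, those whose spots were well above background on each of the 2 arrays of either doxycycline group. Of 56507 probes measured on all arrays 32931 got a gene name, by matching their accession in the files to the RefSeq table of GRCm38.p6. Probes without a match are called unnamed. Each gene was read by its brightest kept probe. The files' headers name mm9, so the only coordinates printed are those of RefSeq promoter windows.

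All 4 groups entered one limma fit (limma 3.58.1, R 4.3.3, lmFit and eBayes, residual df 4); p-values were adjusted by Benjamini-Hochberg and called under 0.05. The fit was tested on simulated data. Named genes were Gtf2i and its paralogues, up to 15 per direction by size among well-read genes, up to 6 bounds per direction, up to 4 per direction from each gene list, defining markers, and genes on each side of the threshold. Axin2, Ccl7, Hmgcs1, Rspo1, Hoxc12, some HoxA and HoxB genes, the further Klra genes and the gene families of the closing section were named after their values were seen. The members and lists were chosen with earlier results of these data known. Alternatives were normexp (offset 50, on median foreground and background signals, since the mean foreground column was not used here), other scalings, filters, probe rules and fits, and each array left out. The number of arrays limits the precision. Not every gene chosen by this rule is reported.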

Additional observations from a re-analysis of the deposited data

Results flagged for a closer look

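In 4 genes both line differences were past limma's threshold with opposite signs, so that every array of the δ line lay on one side of the β line with doxycycline and on the other side without it. Cd209f, a C-type lectin gene, differed by -2.0 with and 0.91 without doxycycline, a difference of -2.91 between the line differences (adjusted p = 0.134). Cacng3, a calcium channel subunit gene, differed by 0.98 and -0.88, 1.86 apart (adjusted p = 0.605). Foxi1, a forkhead factor gene, differed by -0.40 and 0.55, -0.94 apart (adjusted p = 0.605). Olfr282, an olfactory receptor gene, differed by -0.64 and 0.87, -1.51 apart (adjusted p = 0.292). With all 8 arrays, none of the 4 passed limma's test of the difference between the line differences after adjustment over all genes. Without the untreated δ replicate 1, which carries the local defect, that difference was -2.98 for Cd209f, in a fit with 1 array left in that group. All 4 were dim, with levels from -6.89 to -2.65 on the 8 arrays.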

How the results depend on the processing

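The main count of 2696 genes became 4078 when the 4 doxycycline arrays were fitted alone (1704 lower), 1849 after normexp (1080 higher), 2088 with median centring (581 lower), 3260 with quantile normalization, 2232 without a filter and 3270 with an intensity trend. With each array left out in turn it ranged from 640 to 3349, the genes higher in the δ line from 372 to 1971 and those lower from 268 to 1378. The count of genes whose line difference changed with doxycycline was 0, 1 without the filter on dim probes, and 0 to 1055 with an array left out; the cause was not tested. Of 243 named genes past the threshold, 116 stayed past it in all alternatives run for them. The direction of Fcgr3 reversed after normexp, from 0.53 to -0.011 (adjusted p = 0.963); the cause was not tested. Low signal limits folds where a line was below background. No paired analysis was possible because the labels carry no replicate numbers.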

Other observations

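The following groups of genes were looked at after their values were seen, and no test was run on them as groups. Among 365 genes named Zfp, which encode zinc finger proteins, 63 were higher in the δ line and 6 lower (18.9% against 14.2% of all genes tested), with a median of 0.21; 10 to 24 were higher and 0 to 4 lower without 1 of the 4 arrays. The patterning gene Zfp503 was higher at 3.18, Zfp612 at 2.64, Zfp982 at 2.44 and Zfp354c at 2.39. Of 7 Schlafen genes, known from lymphocyte quiescence, 4 were lower and 0 higher (2 or 3 and 0 without 1 of the 4 arrays), with Slfn2 at -1.28 and Slfn8 at -1.35, while of 10 guanylate-binding protein genes 4 were higher and 0 lower. Of 22 genes for clade B serpins, which inhibit proteases inside cells, 8 were lower and 3 higher, but 3 to 5 and 0 without 1 of the 4 arrays, with Serpinb2 at 0.21 and 0.28 against -1.68 and -1.69. The metal-binding gene Mt2 read 3.88 and 3.97 against 0.74 and 0.82, 8.83-fold lower (limma adjusted p = 0.000287), and the prostaglandin synthase gene Ptgs2 -1.87 and -2.0 against -3.53 and -3.53, 3.02-fold lower (0.00111).

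Of 24 imprinted growth genes 3 were higher and 1 lower, 16.7% against 14.2% of all genes tested (1 or 2 and 1 without 1 of the 4 arrays), with Grb10, an adaptor that restrains insulin receptor signals, at 1.61. Of 44 axon guidance genes 3 were higher and 6 lower, 20.5% in all (1 or 2 and 1 to 3 without 1 of the 4 arrays), with the ephrin receptor gene Epha4 at -1.03. Of 24 genes of the Williams syndrome region, which holds Gtf2i, 2 were higher and 1 lower, 12.5% against 14.2% of all genes tested. These calls did not hold in fits without any 1 of the 4 arrays. Of 13 B cell and myeloid genes 2 were higher and 3 lower (1 and 1 or 2 without 1 of the 4 arrays), with the microglial marker Aif1 at 1.52 and the endotoxin coreceptor gene Cd14 at -1.17. Of 17087 unnamed probes kept, 301 were higher and 348 lower (3.80%), against 1409 and 894 of 27202 named ones (8.47%). The fibroblast and thymocyte surface gene Thy1 read 5.19 and 5.19 against 3.01 and 3.08, a difference of -2.14 with adjusted p = 0.214; its spot lay in the defect of the untreated δ replicate 1, and without that array its adjusted p was 0.000221.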
